A study of Homo sapiens with 6 samples.

Results

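Replication-dependent histone genes were taken from the count table of an RNA sequencing comparison of HL60 cells with and without CRISPR/Cas9 targeting of SKI. Members were all gene names that begin with HIST1H, HIST2H, HIST3H or HIST4H, with at least 30 counts summed over the 6 libraries. Only names that end in PS and a number, a pseudogene ending, were left out. Whether other names, such as HIST2H3DP1 (0 counts), are pseudogenes was not checked. This rule uses the total count and not the difference between groups, and it left 40 of the 76 names of the pattern, out of 56638 gene names in all. Of the 40, 32 belong to HIST1, the cluster on chromosome 6, 5 to HIST2 and 2 to HIST3, both on chromosome 1, and 1 is HIST4H4 on chromosome 12. Another 19 names of the pattern were at 0 in every library, 17 had between 1 and 29 counts, and 13 names with the PS ending were left out.

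HL60 is an established human cell line derived from acute myeloid leukaemia, with features of promyelocytes. SKI encodes a transcriptional co-repressor. The control group was HL60 carrying a CRISPR/Cas9 control (line number 1, 3 libraries) and the other group was HL60 with CRISPR/Cas9 knockout of SKI (line number 3, 3 libraries), all grown in RPMI with 10% FCS. Each group was thus 1 line, so the line and the knockout cannot be told apart. Nothing in the labels says that replicates came from separate cultures, so the p-values rest on library-to-library spread alone, and that spread may be technical.

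Replication-dependent histone genes encode the bulk of the core histones H2A, H2B, H3 and H4 and the linker histone H1, and are transcribed mainly in S phase from small intronless genes packed into clusters. Their mRNAs normally end in a conserved stem-loop, bound by SLBP and formed by cleavage guided by the U7 small nuclear RNP, instead of a poly(A) tail. Some of these genes can also give polyadenylated mRNAs that run past the stem-loop to a downstream poly(A) site, and such forms are known from differentiated cells. The libraries were made with a kit that selects poly(A) RNA, so the values describe the polyadenylated part of histone mRNA and whatever else passed that selection, in proportions that were not measured.

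The stem-loops of some members are shown because they mark where the usual, unpolyadenylated transcript ends. They were read from GENCODE release 29 transcripts, 5′ to 3′ in DNA letters, with the 4 bases of the loop in capitals:
HIST1H2AC: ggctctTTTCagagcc
HIST2H2BE: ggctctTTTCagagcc
HIST1H2BC: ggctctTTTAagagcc
HIST1H2AG: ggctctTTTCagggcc
HIST1H4H: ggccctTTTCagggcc
HIST1H4I: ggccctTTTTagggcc
HIST1H2AC and HIST1H2BN, which were called higher in the knockout, and HIST2H2BE, which was called lower, share the same letters, and the H4 genes differ from the H2A and H2B genes in the stem. A stem-loop of this form was present in an annotated transcript of 22 of the 40 members, and in 37 of 19669 protein-coding genes (0.188%), of which 5 do not carry a HIST1 to HIST4 name. In 14 members an annotated transcript ran on for 300 bases or more beyond the loop. That extension was up to 1128 bases in HIST1H2AC, 1729 in HIST2H2BE, 1761 in HIST1H2AG and 390 in HIST3H2A, against 39 in HIST1H2BD. The counts rest on another annotation, which need not include these extensions. HIST3H2A has a deposited length of 496 bases against 895 in GENCODE. For HIST3H2BB, HIST1H2BG and HIST1H3H the deposited lengths are 452, 445 and 473, against 2364, 1534 and 1237. For HIST1H1C, HIST1H1E, HIST1H2BJ and HIST1H2BK, among others, the annotated transcripts did not hold the pattern. Their longest GENCODE transcripts have 642, 754, 950 and 381 bases, against deposited lengths of 732, 785, 1100 and 820. A stem-loop past the end of such a transcript could not be found, so a missing match does not mean that the gene lacks it.

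The promoters of the 4 members that passed the test are shown as the 250 bases before the RefSeq start, 5′ to 3′ on the gene's strand, from the GRCh38.p14 build, which is later than the build of the counts. Capitals mark the TATA-box letters TATAA, the CAAT-box letters CCAAT and the octamer ATTTGCAT, each on either strand:
HIST1H2AC, chr6:26123922-26124171 (plus strand): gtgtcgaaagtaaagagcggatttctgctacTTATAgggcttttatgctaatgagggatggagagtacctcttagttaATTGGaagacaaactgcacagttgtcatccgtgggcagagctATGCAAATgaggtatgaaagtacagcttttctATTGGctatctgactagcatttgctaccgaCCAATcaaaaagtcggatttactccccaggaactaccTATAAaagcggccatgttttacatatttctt
HIST1H2BN, chr6:27838319-27838568 (plus strand): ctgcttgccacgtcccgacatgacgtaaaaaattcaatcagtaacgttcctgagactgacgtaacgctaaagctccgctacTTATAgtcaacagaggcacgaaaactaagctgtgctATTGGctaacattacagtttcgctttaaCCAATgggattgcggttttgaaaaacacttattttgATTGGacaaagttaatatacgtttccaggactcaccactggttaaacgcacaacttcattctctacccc
HIST1H1E, chr6:26156079-26156328 (plus strand): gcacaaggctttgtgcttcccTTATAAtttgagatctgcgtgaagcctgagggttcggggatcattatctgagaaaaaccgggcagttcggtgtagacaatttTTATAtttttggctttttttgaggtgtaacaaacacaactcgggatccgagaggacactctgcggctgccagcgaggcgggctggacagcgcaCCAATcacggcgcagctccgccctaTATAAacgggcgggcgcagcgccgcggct
HIST2H2BE, chr1:149886683-149886932 (minus strand): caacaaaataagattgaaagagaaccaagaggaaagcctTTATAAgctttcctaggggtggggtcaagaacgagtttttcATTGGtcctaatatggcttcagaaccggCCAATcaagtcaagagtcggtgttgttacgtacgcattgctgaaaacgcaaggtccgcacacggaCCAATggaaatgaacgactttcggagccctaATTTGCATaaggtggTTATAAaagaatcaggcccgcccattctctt
The octamer is the letter motif known for POU2F1 and its relatives and is a textbook element of H2B promoters. It occurs in the windows of HIST2H2BE and HIST1H2AC, and its letters are in neither of the HIST1H2BN and HIST1H1E windows. Promoters could be matched for 29 of the 40 members. Of these, 26 held TATAA (18.9% of all 35116 promoters of the same length), 25 held CCAAT (32.0% of all) and 11 held ATTTGCAT (1.63% of all). The octamer was in 7 of 11 H2A and 4 of 7 H2B promoters and in none of 3 H1, 3 H3 and 5 H4 promoters. Windows of genes that lie head to head can be largely the same DNA. That of HIST2H2AC (chr1:149886668-149886917) overlaps that of HIST2H2BE, for example. Such promoters are not independent of each other, and the same octamer can count for an H2A and an H2B gene. The genes that were higher and those that were lower are not separated by these letters, since HIST1H2AC and HIST2H2BE hold all 3 motifs. TATAA was searched on both strands, so TTATAA counts on each. A match is a description of letters and not a site.

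In the whole table, SKI was at 63.8, 83.6 and 88.2 CPM (counts scaled to a common library size after TMM scaling) in the control libraries and 59.7, 40.7 and 42.0 CPM in the knockout libraries. Its log2 fold change was -0.73 (SE 0.19, adjusted p = 0.0299 by edgeR's quasi-likelihood test with Benjamini-Hochberg adjustment, the test used throughout), so SKI mRNA remained in the knockout, and the groups do not overlap. That call was lost without control replicate 2 (adjusted p = 0.118), control replicate 3 (0.145) or knockout replicate 2 (0.0783). The libraries held 47930276 to 58553247 counts, so that 3 counts in a library made 0.0510 to 0.0627 CPM. Of 8 markers of promyelocytic HL60 cells, MPO, CD33, CTSG, AZU1, CEBPE, PRTN3 and MYC were present, and ELANE had 6 counts in all. The 8 summed to 13793 to 15646 CPM in the control and 3316 to 9784 CPM in the knockout, and 7 of them were lower in every knockout library than in any control library. Of markers of other lineages, CD3E, MS4A1 and HBB had at most 2 counts each in all, COL1A1 had 41 and ALB had 21, with 0.251 CPM as the highest value of COL1A1 in a library and 0.190 CPM as that of ALB. The part of these marker levels in the histone results was not tested. Of 18153 genes tested, 1949 passed an adjusted p of 0.05 (10.7%), 1038 higher in the knockout (5.72%) and 911 lower (5.02%). Without control replicate 3, control replicate 2 or knockout replicate 1, 714, 900 and 983 genes passed. The median log2 fold change of all tested genes was -0.01.

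Among the 40 histone genes, 3 were higher and 1 was lower in the knockout by edgeR's test, and 36 missed the threshold. The 3 that rose, HIST1H2AC, HIST1H2BN and HIST1H1E, are all in HIST1, and the 1 that fell, HIST2H2BE, is in HIST2. Read against the share of all genes called (10.7%), 4 of 40 is near the background. The fold changes of the members ran from -1.12 to 1.29 on the log2 scale with a median of 0.10, and 22 were positive and 18 negative. The median standard error of a member was 0.43, since most had few counts. The groups did not overlap for 10 members, 8 higher and 2 lower in the knockout, where 30.8% of all tested genes did not overlap, 15.3% higher and 15.4% lower.

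**Figure D1:**
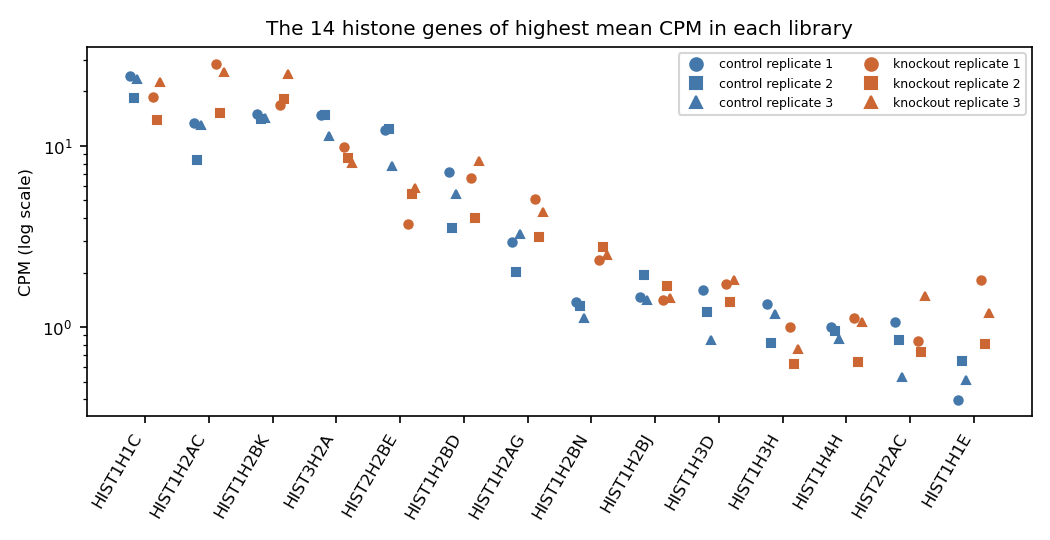
CPM on a log axis of the 14 histone genes of highest mean CPM, with 1 point per library, control and knockout in different colours and the replicate number as the marker shape. HIST1H2AC, HIST1H2BK, HIST1H2BN and HIST1H1E are higher in every knockout library than in any control library, and HIST2H2BE and HIST3H2A are lower in every knockout library.

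Most histone counts came from few genes. The members held 32119 counts over the 6 libraries, of which HIST1 held 78.6%, HIST3 11.4%, HIST2 9.57% and HIST4H4 0.436%. Per kilobase of the gene length in the deposited table, HIST1H1C was at 30.1 ± 4.44 CPM per kb in the control and 25.1 ± 5.84 in the knockout (SD, n = 3). HIST3H2A was at 27.6 ± 4.14 and 17.8 ± 1.95 CPM per kb and HIST1H2BK at 17.7 ± 0.537 and 24.4 ± 5.43 (SD, n = 3), so HIST3H2A stood above HIST1H2BK in the control and below it in the knockout. HIST1H2AC was at 6.94 ± 1.65 and 13.9 ± 4.19 CPM per kb, HIST1H2BD at 5.97 ± 2.01 and 7.01 ± 2.39, and HIST2H2BE, whose deposited length is 4446 bases, at 2.43 ± 0.590 and 1.12 ± 0.258 (SD, n = 3). The GENCODE transcript of HIST2H2BE is 2194 bases long, so its level per kilobase depends on the length used. HIST1H1C differed from HIST3H2A in the control and from HIST1H2BK in the knockout by less than their spread, as did HIST1H2AC from HIST1H2BD in the control. The sum of all 40 members was 96.8 ± 9.22 CPM in the control and 104 ± 17.2 CPM in the knockout (SD, n = 3), which differed by less than the spread between replicates. The single gene H2AFZ, a variant H2A with a polyadenylated mRNA, was at 293 ± 41.5 and 324 ± 54 CPM (SD, n = 3), so this gene took more reads than the 40 members together in both groups.

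The linker histone genes of HIST1 differed among themselves. HIST1H1C, encoding linker histone H1.2 and the member with the most counts, was at 24.3, 18.3 and 23.4 CPM in the control and 18.7, 13.9 and 22.5 CPM in the knockout. The groups overlap, and the fold change of -0.26 (SE 0.20) did not pass (edgeR adjusted p = 0.459). HIST1H1E, encoding H1.4, was low in the control, at 0.397, 0.646 and 0.509 CPM, and rose to 1.81, 0.808 and 1.2 CPM in the knockout. Every knockout library was above every control library, with knockout replicate 2 nearest to the control. The log2 fold change of HIST1H1E was 1.29 (SE 0.37, edgeR adjusted p = 0.0466), from 288 counts in all. The call of HIST1H1E was lost on library totals (adjusted p = 0.0520), in limma-voom (0.0629), with the replicate number as a block (0.0609) and without any single control library (0.0841 to 0.159) or knockout replicate 1 (0.187). Centring on the chromosome left 0.85 with an adjusted p of 0.189.

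Among H2A genes, HIST1H2AC held the most counts of any member that passed the test. HIST1H2AC was at 13.3, 8.40 and 13.0 CPM in the control and 28.4, 15.2 and 25.7 CPM in the knockout. The lowest value of each group was in replicate 2, and the groups do not overlap. The log2 fold change was 1.0 (SE 0.25, edgeR adjusted p = 0.0263). The call was lost without control replicate 2 (adjusted p = 0.114), control replicate 3 (0.0831) or knockout replicate 1 (0.124). HIST1H2AG, with a long annotated extension past the stem-loop, was at 2.97, 2.01 and 3.27 CPM in the control and 5.11, 3.13 and 4.30 CPM in the knockout. The groups of HIST1H2AG overlap, and its difference of 0.61 (SE 0.28) did not pass (edgeR adjusted p = 0.188). The 9 H2A genes of HIST1 summed to 16.4 ± 3.45 CPM in the control and 29.3 ± 8.18 CPM in the knockout (SD, n = 3), most of which was HIST1H2AC, while 6 of the 9 had negative fold changes.

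HIST1H2BN rose from 1.38, 1.31 and 1.12 CPM in the control to 2.35, 2.78 and 2.49 CPM in the knockout. The libraries of each group lie close together and the groups do not overlap, with a log2 fold change of 1.0 (SE 0.26, edgeR adjusted p = 0.0279). The call was lost without any single control library (adjusted p = 0.0767 to 0.126) or knockout replicate 1 (0.0651). In GENCODE release 29 the exons of HIST1H2BN overlap HIST1H2AL on the same strand and HIST1H2AK on the opposite strand, and the strand setting of the counting is not given, so reads of these genes cannot be told apart with certainty. HIST1H2BK, the H2B gene of HIST1 with the most counts, was at 15.0, 14.2 and 14.3 CPM in the control and 16.8, 18.2 and 25.1 CPM in the knockout. No control library of HIST1H2BK reached the lowest knockout library, but the difference of 0.47 (SE 0.19) did not pass (edgeR adjusted p = 0.137). The GENCODE transcript of HIST1H2BK is 381 bases long, against a deposited length of 820. Of the 50-base windows of that transcript, 74.1% occur in another gene, so the count is uncertain there. The rest of the deposited length was not compared. HIST1H2BD was at 7.14, 3.53 and 5.41 CPM in the control and 6.68, 3.98 and 8.22 CPM in the knockout, with overlapping groups and a fold change of 0.23 (SE 0.31, edgeR adjusted p = 0.685).

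The H3 and H4 genes of HIST1 were low, and none of the 6 H3 and 5 H4 genes passed. HIST1H3D was at 1.61, 1.21 and 0.843 CPM in the control and 1.72, 1.37 and 1.81 CPM in the knockout (0.43, SE 0.31, edgeR adjusted p = 0.428), and HIST1H3H was at -0.48 (SE 0.33, adjusted p = 0.401). Exons of HIST1H3D overlap another annotated gene on the same strand. HIST1H4H and HIST1H4I were at 0.01 and 0.13 on the log2 scale, with standard errors of 0.32 and 0.37. All 5 H4 genes had positive fold changes, with a median of 0.26, and the H4 sum was 2.28 ± 0.581 CPM in the control and 2.77 ± 0.805 CPM in the knockout (SD, n = 3).

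Outside HIST1, HIST2H2BE, an H2B gene of HIST2, was at 12.3, 12.4 and 7.80 CPM in the control and fell to 3.69, 5.43 and 5.86 CPM in the knockout. Control replicate 3 was the lowest of the control libraries and still above every knockout library. The log2 fold change was -1.12 (SE 0.25, edgeR adjusted p = 0.0147), and after centring on chromosome 1 it was -1.13 (adjusted p = 0.0183). The call was lost without control replicate 1 (adjusted p = 0.0562), control replicate 2 (0.0693) or knockout replicate 1 (0.0702). HIST3H2A, an H2A gene of HIST3, was at 14.9, 14.9 and 11.3 CPM in the control and 9.91, 8.56 and 8.03 CPM in the knockout. The groups of HIST3H2A do not overlap, but its difference of -0.63 (SE 0.19) was just outside the threshold in edgeR (adjusted p = 0.0551) and inside it in DESeq2's Wald test (adjusted p = 0.0190). In the authors' deposited table, HIST3H2A had a log2 fold change of -0.58 and an adjusted p of 0.0254, and the 4 genes called here also had an adjusted p under 0.05.

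The remaining HIST2 genes were low and did not pass. HIST2H2AC was at 1.07, 0.850 and 0.527 CPM in the control and 0.833, 0.725 and 1.48 CPM in the knockout (0.32, SE 0.38, edgeR adjusted p = 0.645). HIST2H2BF was at -0.90 (SE 0.45), HIST2H2AA3 at -0.58 (SE 0.58) and HIST2H2BC at -0.42 (SE 0.64) on the log2 scale. The GENCODE transcript of HIST2H2AA3 is 549 bases long, against a deposited length of 1452. All 50-base windows of that transcript occur in another annotated gene, among them its copy HIST2H2AA4, which is at 0 in every library. Reads of the copies cannot be told apart there, and the rest of the deposited length was not compared. Exons of HIST2H2BF and HIST2H2BC overlap FCGR1A and HIST2H2BD on the opposite strand. HIST3H2BB was at -0.03 (SE 0.50) and HIST4H4 at -0.59 (SE 0.43). Of the 8 members outside HIST1, 7 had negative fold changes, with a median of -0.59.

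**Figure D2:**
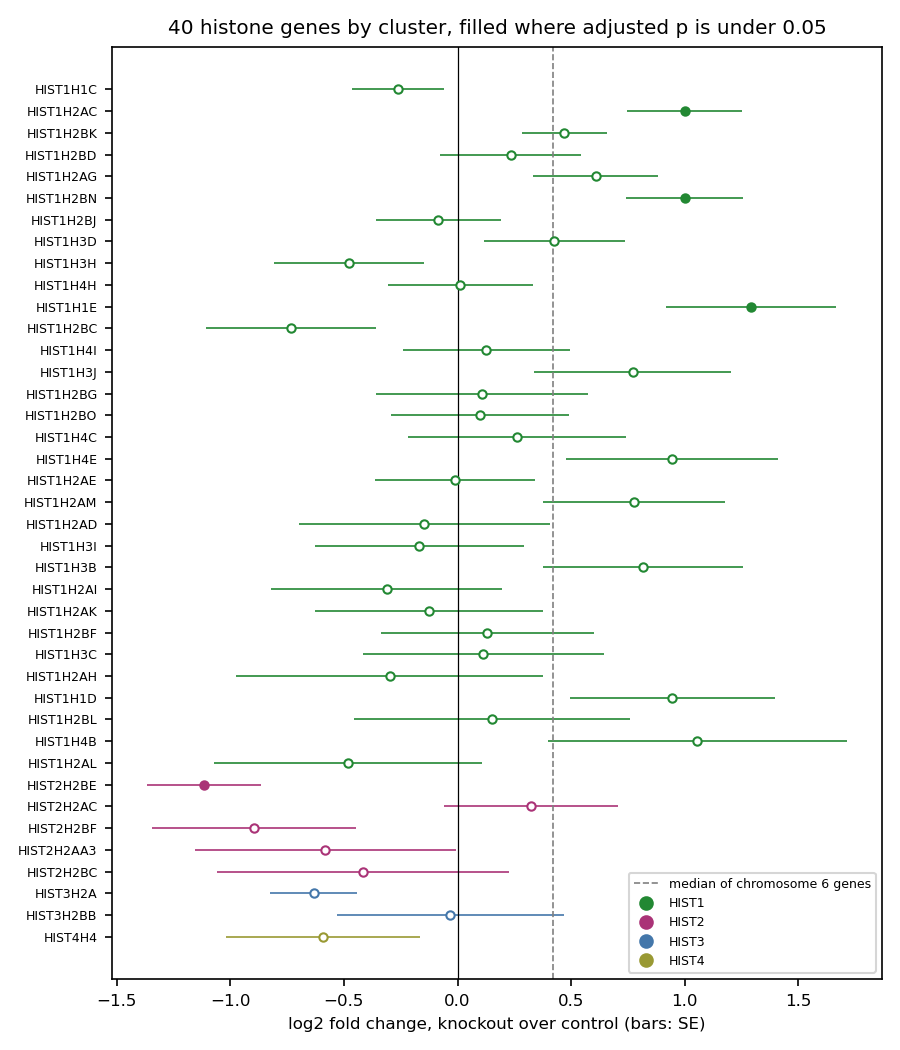
Log2 fold change with SE of the 40 histone genes, ordered by cluster and then by mean CPM, with filled points where the edgeR adjusted p is under 0.05 and a dashed line at the median of chromosome 6 genes (0.42). In HIST1, 21 of 32 genes lie right of 0, and in HIST2 1 of 5 does.

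The rule contrasts the chromosome 6 cluster with HIST2. Summed over its 32 members, HIST1 was at 77.8, 60.8 and 70.9 CPM in the control and 94.3, 69.5 and 101.6 CPM in the knockout. These groups overlap, since knockout replicate 2 is below control replicates 1 and 3. Summed over its 5 members, HIST2 was at 14.2, 14.5 and 9.08 CPM in the control and 4.98, 6.59 and 8.20 CPM in the knockout. The HIST2 groups do not overlap, with control replicate 3 nearest to the knockout. The log2 ratio of the HIST1 sum to the HIST2 sum was 2.45, 2.07 and 2.97 in the control and 4.24, 3.40 and 3.63 in the knockout, or 2.50 ± 0.448 and 3.76 ± 0.436 (SD, n = 3). The ratio was 1.26 higher in the knockout on the log2 scale, a 2.40-fold difference, and was higher in every knockout library than in any control library.

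The difference was smaller without HIST2H2BE, the HIST2 gene with the most counts. Without HIST2H2BE the 4 other HIST2 genes summed to 1.76 ± 0.430 CPM in the control and 1.60 ± 0.648 CPM in the knockout (SD, n = 3), and the HIST1 to HIST2 log2 ratio differed by 0.51 with overlapping groups. Without HIST1H1C, the HIST1 sum was 47.8 ± 5.48 CPM in the control and 70.1 ± 12.7 CPM in the knockout (SD, n = 3), and these groups do not overlap. Leaving out the member of highest mean CPM in both clusters, HIST1H1C and HIST2H2BE, the log2 ratio differed by 0.73 and the groups overlapped. Restricted to H2B genes it differed by 1.45 without overlap, but HIST2H2BE held 2535 of the 2696 counts of the HIST2 H2B genes. The HIST1 to HIST3 log2 ratio was 0.95 higher in the knockout without overlap, and the HIST3 to HIST2 log2 ratio differed by 0.31 with overlapping groups. Of the 3665 HIST3 counts, HIST3H2A held 3615, so the HIST3 sum is nearly this 1 gene. No test was made of these sums, since the members were chosen with earlier results known, and an exact permutation of 3 against 3 libraries could not go below p = 0.1.

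**Figure D3:**
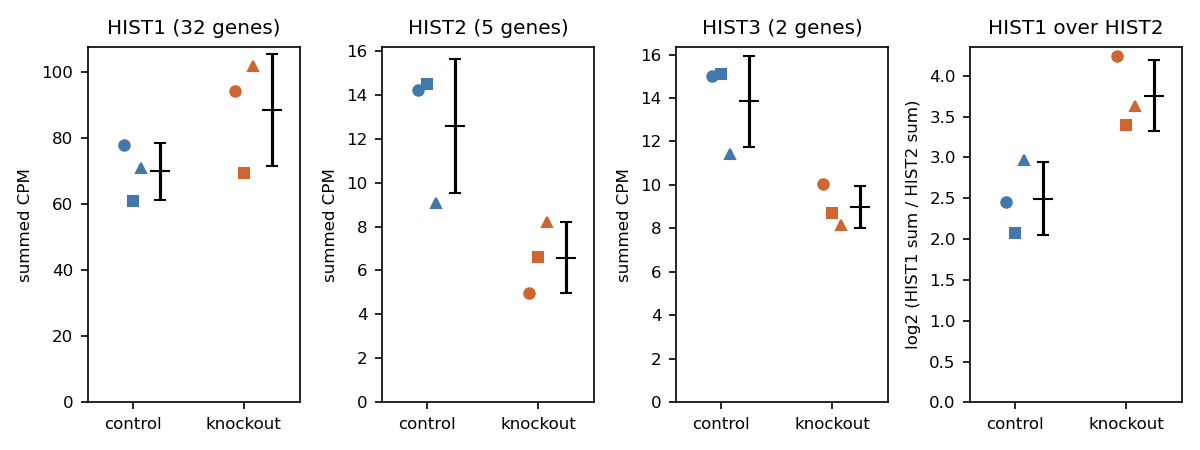
Summed CPM of HIST1, HIST2 and HIST3 members and the log2 ratio of the HIST1 sum to the HIST2 sum, with 1 point per library (marker shape for the replicate) and black bars for the mean ± SD. HIST1 groups overlap while HIST2, HIST3 and ratio groups do not.

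The median log2 fold change was 0.13 over the 32 HIST1 genes (21 positive, 11 negative) and -0.58 over the 5 HIST2 genes (1 positive, 4 negative). The HIST2 median was -1.06 without knockout replicate 3 and -0.21 without knockout replicate 1. The 8 HIST1 genes with a mean of at least 1 CPM had a median of 0.45, with 6 positive and 2 negative, and the 24 below 1 CPM had a median of 0.11. The 13 HIST1 genes longer than 800 bases in the deposited table summed to 41.6 ± 5.0 CPM in the control and 62.9 ± 12.3 CPM in the knockout (SD, n = 3), with a median of 0.43 and 11 of 13 positive. The 19 HIST1 genes of up to 800 bases summed to 28.3 ± 3.53 and 25.6 ± 4.55 CPM (SD, n = 3), with a median of 0.10. The difference between the length classes was not tested.

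Chromosome 6 as a whole was higher in the knockout. Over its 487 genes with an average log2 CPM above 2, the members left out, the median log2 fold change was 0.42 and 88.1% were positive, while the median of 974 chromosome 1 genes was 0.00. Relative to the control mean, the median of the chromosome 6 genes was 0.41, 0.44 and 0.43 in the 3 knockout libraries, and that of the HIST1 members was 0.44, 0.15 and 0.26. After each gene was centred on the median of its chromosome, 1398 of all tested genes passed (7.7%), none of the 3 HIST1 genes did and HIST2H2BE did. The centred fold changes were 0.56 for both HIST1H2AC (adjusted p = 0.209) and HIST1H2BN (adjusted p = 0.211). For HIST1H1C the centred value was -0.70 (adjusted p = 0.0589). The centred median of HIST1 was -0.31 and the HIST1 to HIST2 log2 ratio differed by 0.84.

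Non-histone genes taken as neighbours of the histone clusters were read from fixed lists of names, and their distances from the clusters were not measured. Of 24 tested neighbours of HIST1, 7 rose, none fell and 23 had positive fold changes, with a median of 0.55, where 5.72% of all tested genes rose and 5.02% fell. The largest change was that of PRSS16, a thymus-type serine protease, from 4.98 ± 0.932 to 16.5 ± 2.99 CPM (SD, n = 3, log2 1.73, edgeR adjusted p = 0.000745). ZSCAN16, BTN2A2 and TRIM38 rose by 0.92, 0.86 and 0.77, and did not pass after chromosome centring (adjusted p = 0.116, 0.234 and 0.288 in edgeR). After chromosome centring the HIST1 neighbours had a median of 0.11 and PRSS16 still passed (1.29, adjusted p = 0.00357). Of 20 tested neighbours of HIST2, none rose and none fell by edgeR's test, and their median was 0.03. In the same test 2 of them had an unadjusted p under 0.05, a share that was not computed over all tested genes. HIST2H2BE thus fell while none of the listed HIST2 neighbours passed, and 23 of 24 listed HIST1 neighbours had positive fold changes.

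**Figure D4:**
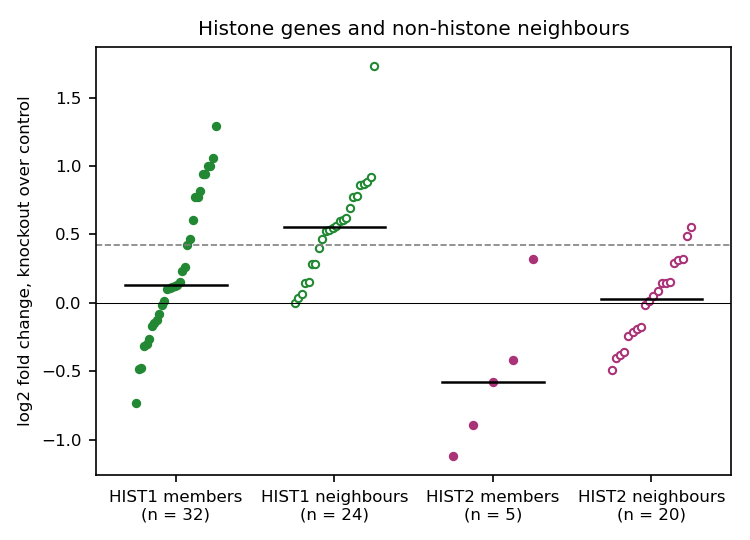
Log2 fold change of each HIST1 member, non-histone neighbour of HIST1, HIST2 member and non-histone neighbour of HIST2, sorted within each set, with black lines at the medians and a dashed line at the median of chromosome 6 genes (0.42). The medians are 0.13, 0.55, -0.58 and 0.03.

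Many H2A and H2B genes lie head to head and share the sequence between their starts. Of 14 such pairs of the name pattern, with starts within 1000 bases in GENCODE release 29, both genes were members in 9. In 7 of the 9 the fold changes had opposite signs and in 2 the same sign, though most of these genes had standard errors larger than their fold changes. In 2 pairs the ratio of the partners did not overlap between groups, and each holds a gene called above, HIST1H2AC or HIST2H2BE. The share over other pairs of genes was not computed. Taken singly, 30.8% of all tested genes did not overlap. The log2 ratio of HIST1H2BC to HIST1H2AC was -4.11, -2.61 and -4.07 in the control and -5.19, -4.76 and -5.94 in the knockout. HIST1H2AC rose, while HIST1H2BC was at -0.73 (SE 0.37, edgeR adjusted p = 0.244). The log2 ratio of HIST2H2BE to HIST2H2AC was 3.53, 3.86 and 3.89 in the control and 2.15, 2.90 and 1.98 in the knockout, with HIST2H2BE lower and HIST2H2AC at 0.32. These 2 pairs were picked out after their values were seen. In the pair HIST3H2A and HIST3H2BB the ratio groups overlapped, as they did for HIST1H2AG and HIST1H2BJ, where HIST1H2BJ was at -0.08 (SE 0.27).

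**Figure D5:**
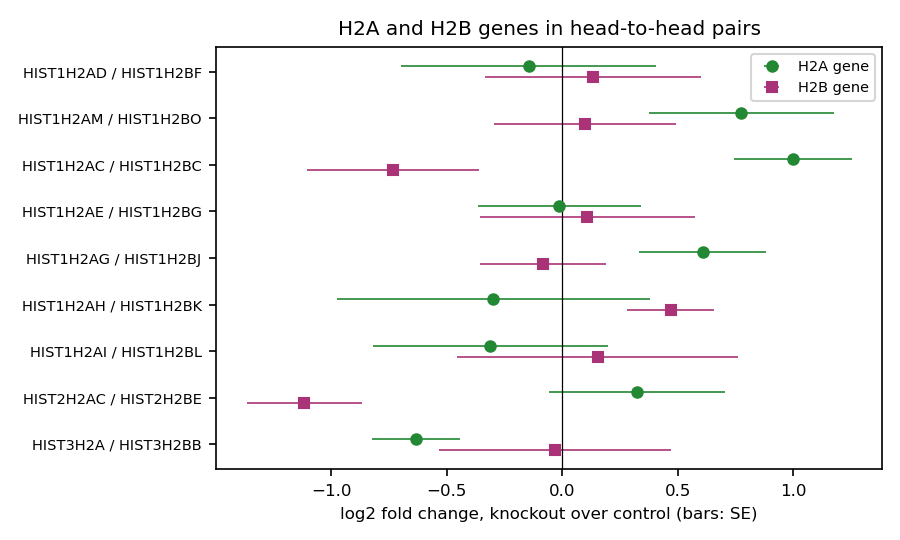
Log2 fold change with SE of the 9 head-to-head pairs, the H2A gene as a circle and the H2B gene as a square. The partners lie on opposite sides of 0 in 7 pairs, with the largest gaps for HIST1H2AC with HIST1H2BC and HIST2H2AC with HIST2H2BE.

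Genes that make, process or carry histones were counted from lists. Of 39 tested genes of histone transcription and mRNA 3′ end processing, 2 rose and 6 fell, with a median of -0.08, where 5.72% of all tested genes rose and 5.02% fell. CSTF2T, a cleavage stimulation factor subunit, fell from 9.34 ± 2.47 to 2.37 ± 0.662 CPM (SD, n = 3, log2 -1.98, edgeR adjusted p = 0.00153). UPF1, SYMPK and ZNF473, which act in histone mRNA decay, the cleavage complex and U7-dependent processing, fell by 0.78, 0.70 and 0.72 on the log2 scale, and CPSF1 and PCF11 fell by 0.60 each. UPF1, SYMPK and ZNF473 are on chromosome 19, whose median was -0.48, and none passed after chromosome centring (-0.30, -0.23 and -0.24). NELFE, on chromosome 6, rose by 0.80 and was at 0.36 after centring (adjusted p = 0.230), and MIF4GD, an SLBP partner, rose by 0.59. After centring, CSTF2T (-1.99), CPSF1 (-0.59), PCF11 (-0.60) and MIF4GD (0.58) still passed (edgeR adjusted p = 0.00131, 0.0286, 0.0342 and 0.0431). SLBP and NPAT, the stem-loop binding protein and the histone transcription co-activator, were at -0.03 (SE 0.17) and -0.13 (SE 0.20) and did not pass. Whether these genes bear on the histone values was not tested.

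Of 9 tested replication-independent or variant histone genes, 1 rose and none fell, where 5.72% of all tested genes rose and 5.02% fell. H3F3B, which encodes H3.3, went from 353 ± 27.7 to 608 ± 156 CPM (SD, n = 3, log2 0.78, edgeR adjusted p = 0.0257). It was at 0.78 after chromosome centring (edgeR adjusted p = 0.0320). Of 19 tested histone chaperones and importers, 3 fell and none rose (5.02% and 5.72% of all tested genes). IPO4, an importer of H3 and H4, fell by 1.17 on the log2 scale (SE 0.21, edgeR adjusted p = 0.00494), and CHAF1A and SUPT16H fell by 0.66 and 0.71. After chromosome centring IPO4 still passed (-0.98, adjusted p = 0.0138), while CHAF1A, on chromosome 19, was at -0.20 (adjusted p = 0.529) and SUPT16H at -0.53 (adjusted p = 0.144). ASF1B, a chaperone on chromosome 19, was at 0.10 without centring and passed as higher with it (0.56, edgeR adjusted p = 0.0490). Of 25 S phase genes, none rose and none fell by edgeR's test at an adjusted p of 0.05, against 5.72% and 5.02% of all tested genes. The median of the S phase genes was -0.07. In the same test 5 of them had an unadjusted p under 0.05, a share that was not computed over all tested genes. The smallest adjusted p among the S phase genes was 0.0529. Of the 19 list genes called, CSTF2T, IPO4 and PRSS16 passed whichever 1 library was left out, with highest adjusted p-values of 0.0115, 0.0395 and 0.0120. The 16 others lost their call in at least 1 such refit: leaving out control replicate 3 removed 16 calls, control replicate 2 removed 13, knockout replicate 1 removed 12, control replicate 1 removed 9 and knockout replicate 2 removed 4.

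At the edge of the rule, the members with the fewest counts were HIST1H2AL with 37, HIST2H2BC with 39 and HIST1H4B with 43 counts over the 6 libraries. The names just outside were HIST1H4K with 28 and HIST2H2AB and HIST1H2BB with 27 each. Among the 19 names at 0, 6 lie next to each other in HIST1: HIST1H4F, HIST1H4G, HIST1H3F, HIST1H2BH, HIST1H3G and HIST1H2BI. On either side, HIST1H1D had 60 counts and HIST1H4H 302. A count of 0 in a library allows up to 3 counts, or 0.0510 to 0.0627 CPM. Of the 19 names, 11 share no 50-base window with another gene, and HIST2H2AA4, HIST2H3A, HIST2H3C and HIST2H4B share over 90% of their windows.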

How the data were processed

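HL60 RNA was sequenced in 6 libraries, prepared with a kit for stranded mRNA that selects poly(A) RNA, per the labels' protocols. Per the submitters' processing notes the tools included bcl2fastq, TopHat2, featureCounts of Subread, DESeq2 and DESeq, with hg19 (GRCh37) as the build. Software versions, annotation, strand setting and the handling of reads shared between genes: not given in the sources used here. Raw counts per gene and gene lengths were deposited by the authors, and all fits started from these counts. From a second table that the authors deposited, with normalized signal, only log2 fold changes and p-values were read.

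Titles gave 3 control and 3 knockout replicates. Genes with at least 30 counts over the 6 libraries were TMM-scaled, and the test was the quasi-likelihood F test in edgeR 4.0.16 (R 4.3.3), with group as the only term, Benjamini-Hochberg adjustment over 18153 genes and a threshold of 0.05. Standard errors came from the F statistic, and log2 CPM had a prior count of 2. Members and gene lists were chosen with earlier results of these data known. Named genes are all members past the threshold, the 2 members of highest mean CPM in each histone class of HIST1, all members of HIST2, HIST3 and HIST4, those nearest the count threshold, and up to 4 genes past the threshold with the smallest p from each list. SYMPK, CPSF1, PCF11, MIF4GD, SLBP, NPAT, H2AFZ, HIST1H2BC, HIST1H2BJ and the genes at and around the run at 0 are named beyond that rule, after their values were seen. Gene order, overlaps, transcripts, 50-base windows and chromosomes (found for 77.9% of tested genes) came from GENCODE release 29 by symbol, and promoters from RefSeq.

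Other settings tried were size factors of DESeq2 in edgeR, library totals, filterByExpr, no filter, the Wald test of DESeq2 1.42.0, voom in limma 3.58.1, a block for the replicate number, each library left out in turn, and centring on chromosomes. The script was tested on simulated data before use.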

Additional observations from a re-analysis of the deposited data

How the results depend on the processing

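The count over all genes tested was 1949, and leaving out 1 library gave 714 to 2477 (714 without control replicate 3, 900 without control replicate 2, 983 without knockout replicate 1). The members called higher numbered 3, or 0 to 3 with 1 library left out, and those called lower numbered 1, or 0 to 1. Each of the 4 called genes lost its call without at least 3 of the libraries: HIST1H2AC (adjusted p = 0.0831 to 0.124) and HIST2H2BE (adjusted p = 0.0562 to 0.0702) without 3, HIST1H2BN and HIST1H1E without 4. DESeq2's Wald test called 2 members lower, HIST3H2A being the other, and chromosome centring called 0 higher. The HIST1 median of 0.13 ran from 0.10 to 0.30 with 1 library left out, was 0.45 for members of at least 1 CPM, a limit chosen after seeing the data, and turned to -0.31 with chromosome centring. The HIST2 median of -0.58 ran from -1.06 (without knockout replicate 3) to -0.21 (without knockout replicate 1). The log2 ratio difference of 1.26 ran from 1.02 to 1.5, was 0.84 with centring and 0.73 without the member of highest mean CPM in each cluster, also chosen after seeing the data. Counts over all genes were 2853 with no filter and 2629 with DESeq2's Wald test.

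The replicate number as a block gave 2113 calls over all genes and 2 members higher, with HIST1H1E at an adjusted p of 0.0609. Same-numbered libraries correlated at -0.19, 0.42 and -0.10, and control replicate 1 with knockout replicate 3 at 0.54. The values were centred within groups of 3 libraries, so these correlations cannot decide whether the numbers pair the libraries. HIST1H4H changed sign with the block (-0.021), limma-voom (-0.018) and centring (-0.42), and HIST3H2BB with the block (0.030) and limma-voom (0.055). Centring also turned HIST1H2BD (-0.21), HIST1H3D (-0.0090) and HIST1H4I (-0.31). With 1 library left out, HIST1H4H ran from -0.13 to 0.24, HIST1H4I from -0.059 to 0.349, HIST3H2BB from -0.25 to 0.42, HIST2H2BC from -0.80 to 0.27, HIST1H2BJ from -0.172 to 0.077 and HIST2H2AC from -0.034 to 0.558. None of these passed in any setting run, and the cause was not tested. The filterByExpr setting kept 34 of the 40 members, so members lost there have no value in it.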
